A study of Mus musculus with 6 samples.

Results

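Circular RNAs (circRNAs) are transcripts closed into a ring by back-splicing. Those described here are made from 5 genes for proteins that bind or act on double-stranded RNA. Rows of the deposited circRNA table were taken when their host list held the Ensembl identifier of Strbp, Zfr, Adarb1, Adarb2 or Dicer1. That gave 43 of 10652 circRNAs, 19 from Strbp, 9 from Zfr, 3 from Adarb1, 11 from Adarb2 and 1 from Dicer1. Counting 1 near-identical pair of Zfr rows and 1 of Adarb2 rows once left 41. The genes were chosen with earlier results of the same comparison known, so their differences between groups are given as a description, without a p-value.

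The libraries came from the hippocampus of male C57BL/6J mice, bought at 8 to 10 weeks of age. Mice in 3 libraries had been through chronic unpredictable stress (CUS), a schedule of randomly ordered mild stressors run for 4 weeks, and 3 libraries came from Control mice. The labels name no mutation or drug in either group and do not say whether each library came from 1 mouse. In bulk tissue of this kind, fewer cells of a type and less RNA per cell cannot be told apart.

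Double-stranded RNA forms where a transcript folds back on itself, often through inverted repeats, and the same pairing between flanking introns can bring the ends of a circRNA together. ADAR enzymes deaminate adenosine to inosine in such duplexes, which in brain recodes receptor and channel transcripts, and in human cells loss of ADAR has been seen to raise the output of some circRNAs. Dicer cuts hairpin precursors into microRNAs. Strbp and Zfr belong to a related pair of proteins that share the DZF domain, and a Drosophila relative of Zfr is known to affect editing in neurons.

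Of the 9 Zfr rows, 5 list Mir1898 as a second host. Mir1898 is annotated at chr15:12171492-12171574 on the plus strand of GRCm38, inside the intron between exons 16 and 17 of transcript Zfr-201, whose exons number 20. Its mature and hairpin sequences (RefSeq, GRCm38.p6) are shown because this listing separates the Zfr circRNAs that carried most of the Zfr level. Capitals mark the seed, bases 2 to 8, in the mature form (chr15:12171502-12171523) and the mature form within the hairpin.
mmu-miR-1898: aGGUCAAGguucacaggggauc
Mir1898 hairpin: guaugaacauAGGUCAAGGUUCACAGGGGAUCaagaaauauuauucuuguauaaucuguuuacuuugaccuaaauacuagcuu
The table was used without circRNA coordinates, so whether these circRNAs hold the hairpin was not tested.

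Values below are levels, meaning 10 to the deposited log10 value, with an entry of 0 kept at 0. The number of reads behind a level is unknown, so an entry of 0 does not show absence. The lowest level above 0 was 45.7 to 50.1 in CUS libraries and 41.0 to 45.2 in Control libraries. CUS libraries held 3991 to 4273 circRNAs above 0, and Control libraries 4329 to 4606. The inverse of each library's smallest step, taken as relative depth, was 81.9% to 89.8% of the deepest library in CUS libraries and 90.8% to 100% in Control libraries. Libraries resembled each other weakly, with Spearman correlations across the 3896 tested circRNAs of 0.27 to 0.32 within groups and 0.25 to 0.31 between groups, as a description across circRNAs that are not independent.

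CUS was compared with Control across the whole table with limma on log2(level + 45.5), for features above 0 in at least 3 of 6 libraries. At an adjusted p under 0.05 it called 0 of 3896 circRNAs (0.00%) and 0 of 2653 hosts (0.00%), so none of these 5 hosts or their circRNAs passed. At an unadjusted p under 0.05 there were 234 circRNAs (6.01%) and 138 hosts (5.20%). The median log2 difference, CUS minus Control, was -0.12 over all tested circRNAs and -0.06 over all tested hosts.

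Strbp, which encodes the spermatid perinuclear RNA-binding protein, lies at chr2:37483228-37703859 on the minus strand (GRCm38, 220.6 kb). Its summed circRNA level was 10607, 12086 and 9984 in CUS libraries against 10740, 7335 and 11807 in Control libraries. The groups overlapped, and the log2 difference was 0.15 with SE 0.27. Averaged over the 6 libraries this sum of 10427 ranked first of 4483 hosts, next to 10300 for Zfp532. Per kilobase of annotated gene the mean level of Strbp was 47.3, against a median of 3.9 over 4467 hosts with an annotated length. By that measure Strbp ranked 613 of these hosts. Its 19 circRNAs were all exonic. A stretch of the gene is overlapped on the opposite strand by Rabgap1 and Gpr21, but no Strbp row lists either.

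**Figure D1:**
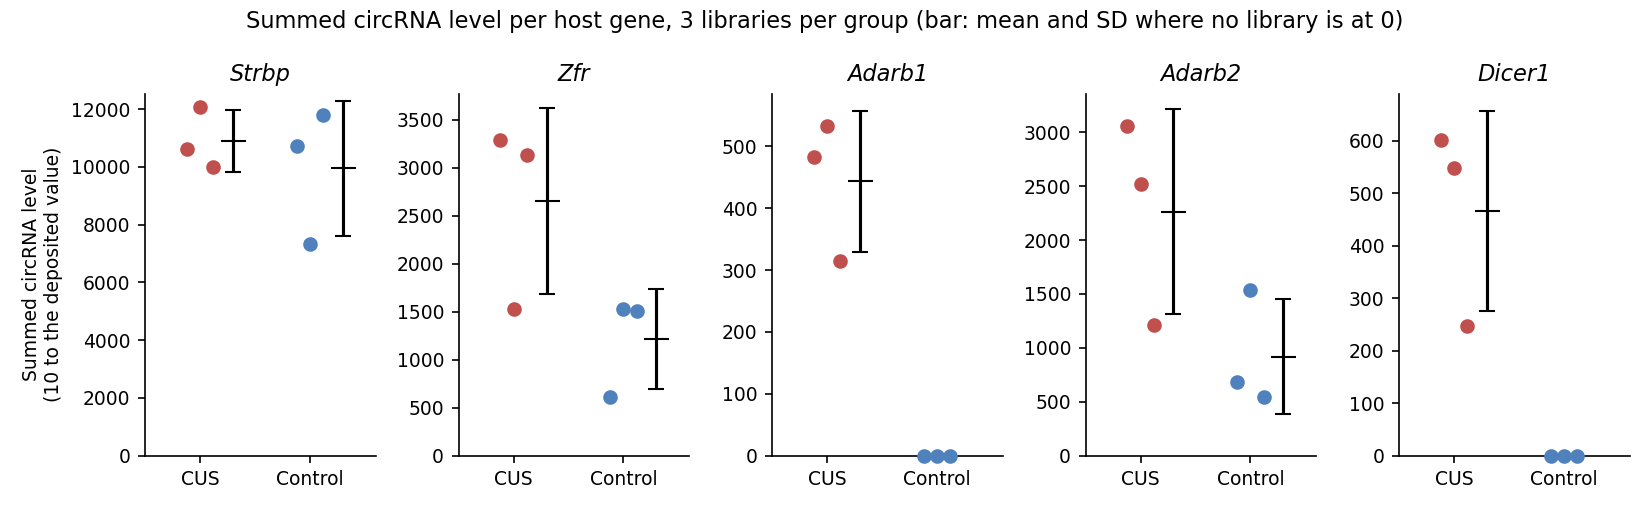
Summed circRNA level (10 to the deposited value, vertical axis) of each host gene in the 3 CUS libraries (red, left) and the 3 Control libraries (blue, right). Black bars give the mean and SD where no library is at 0. Strbp lies between 7335 and 12086 over both groups, while Adarb1 and Dicer1 are at 0 in all 3 Control libraries.

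The Strbp sum had 1 leading circRNA by mean level. mmu_circRNA005893 was at 5465, 5661 and 7130 in CUS libraries and at 5002, 3742 and 2418 in Control libraries. Every CUS library lay above every Control library, as for 5.78% of all tested circRNAs, and the ratio of means was 1.64 with a log2 difference of 0.75 and SE 0.35. Over all 6 libraries it ranked 6th of 10652 circRNAs by mean level and made up 47.0% of the Strbp sum. Its share of that sum was 51.5%, 46.8% and 71.4% in CUS libraries against 46.6%, 51.0% and 20.5% in Control libraries, so the shares overlapped.

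The other 18 Strbp circRNAs together went the other way in their means, at 4807 ± 1809 in CUS libraries and 6240 ± 2930 in Control libraries (SD, n = 3 each). Per library that rest was 5142, 6425 and 2854 in CUS libraries and 5739, 3593 and 9389 in Control libraries, which overlap. Control replicates 1 and 2 lay within the CUS range, and the higher Control mean rested on Control replicate 3. mmu_circRNA005889 was at 714, 339 and 465 in CUS libraries against 881, 764 and 2074 in Control libraries. Here every CUS library lay below every Control library, as for 5.08% of all tested circRNAs, with a ratio of means of 0.41 and a log2 difference of -1.14 with SE 0.76. Without Control replicate 3 the log2 difference was -0.71 for mmu_circRNA005889 and 0.48 for mmu_circRNA005893. The 2 Strbp circRNAs whose groups did not overlap thus stood in opposite directions within a host sum that overlapped.

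Control replicate 3 held the lowest level of mmu_circRNA005893 and the highest of mmu_circRNA005889 and mmu_circRNA005884. mmu_circRNA005884 was at 843, 788 and 824 in CUS libraries and at 616, 156 and 2628 in Control libraries. Its mean was lower in CUS libraries (818 against 1133) while its fitted log2 difference was 0.28. That difference was -0.62 without Control replicate 2 and 1.24 without Control replicate 3. mmu_circRNA005897 was at 940, 2421 and 478 in CUS libraries and at 1791, 1273 and 2343 in Control libraries. mmu_circRNA005894 was at 333, 697 and 340 in CUS libraries and at 910, 0 and 338 in Control libraries. Each of these overlapped between groups.

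Of the remaining 14 Strbp circRNAs, 7 were above 0 in 1 library each. mmu_circRNA005882 was above 0 in all 3 CUS libraries (413, 455 and 155) and in Control replicates 1 and 3 (70.0 and 295). mmu_circRNA005888 was at 180, 562 and 0 in CUS libraries and 287, 761 and 122 in Control libraries. mmu_circRNA005892 was listed at 0 in CUS libraries and at 0, 156 and 838 in Control libraries. In all, 5 Strbp circRNAs were above 0 in CUS libraries alone and 4 in Control libraries alone, and 8 to 11 were above 0 per CUS library against 7 to 11 per Control library.

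**Figure D2:**
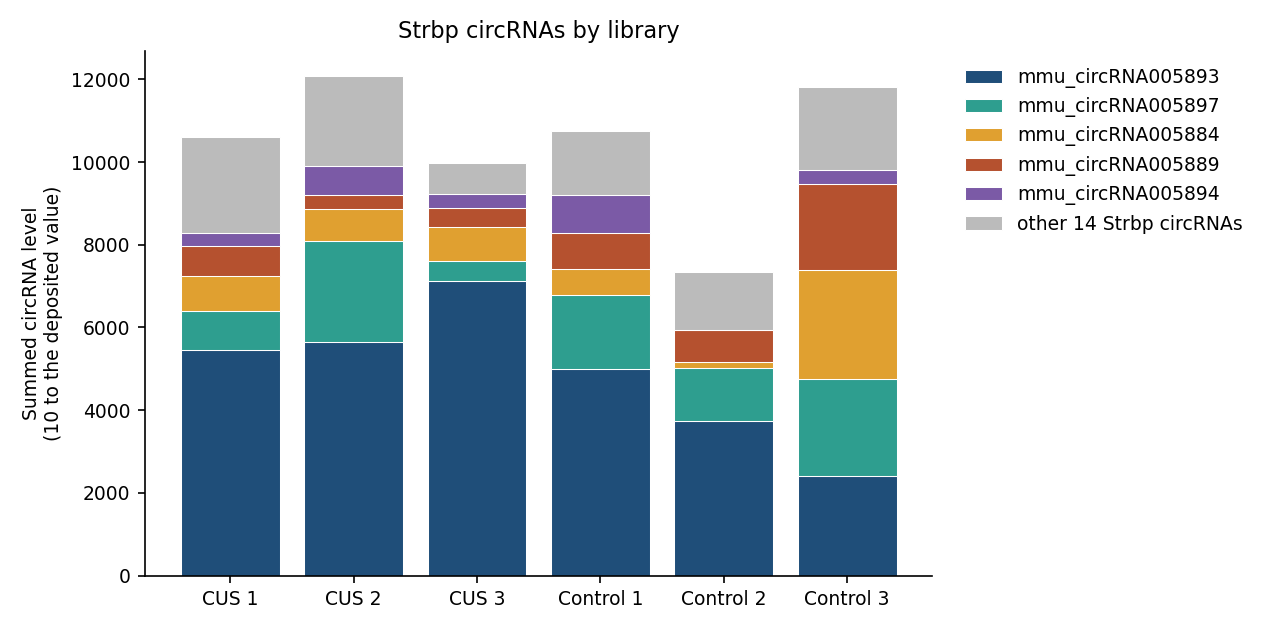
Stacked levels (10 to the deposited value, vertical axis) of the Strbp circRNAs in each library, with the 5 of highest mean in their own colours and the other 14 summed in grey. mmu_circRNA005893 reaches 7130 in CUS replicate 3 and 2418 in Control replicate 3, while the total stays between 7335 and 12086.

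Zfr, a zinc finger gene for a double-stranded RNA-binding protein with roles in splicing, lies at chr15:12117831-12185683 on the plus strand (GRCm38, 67.9 kb). Its circRNA sum was 3284, 1533 and 3137 in CUS libraries against 616, 1523 and 1506 in Control libraries. The groups did not overlap, but CUS replicate 2 and Control replicate 2 lay side by side at 1533 and 1523. Among tested hosts, 5.96% had every CUS library above every Control library. The means were 2651 ± 971 in CUS libraries and 1215 ± 519 in Control libraries (SD, n = 3 each). The log2 difference was 1.13 with SE 0.53, and 0.71 without Control replicate 1.

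The Zfr circRNAs that also list Mir1898 carried most of this sum. With the close pair counted once they were at 2762, 1183 and 2430 in CUS libraries and at 616, 1193 and 960 in Control libraries, which overlap. They made up 84.1%, 77.2% and 77.5% of the Zfr sum in CUS libraries and all of it, 78.3% and 63.8% in Control libraries. The 4 circRNAs that list Zfr alone were at 522, 350 and 707 in CUS libraries and at 0, 330 and 545 in Control libraries. Those groups overlap too.

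The close Zfr pair, mmu_circRNA003616 and mmu_circRNA003613, differed by at most 6.6% in any library and may share reads. mmu_circRNA003616 was at 1253, 600 and 2096 in CUS libraries and at 340, 608 and 380 in Control libraries. mmu_circRNA003613 was at 1194, 567.5 and 1998 in CUS libraries and at 321, 567.3 and 380 in Control libraries. The groups overlapped for mmu_circRNA003616, and for mmu_circRNA003613 they did not, by 567.5 against 567.3, so near-identical rows fell on either side of that line. The log2 differences were 1.35 with SE 0.77 and 1.34 with SE 0.78.

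A further Zfr pair was close in every library other than CUS replicate 1. mmu_circRNA003612 was at 911, 164 and 0 in CUS libraries and at 142, 297 and 295 in Control libraries, and mmu_circRNA003615 at 598, 175 and 0 in CUS libraries and at 133, 287 and 285 in Control libraries. Both had a higher mean in CUS libraries and a negative fitted log2 difference (-0.42 with SE 1.31 and -0.53 with SE 1.31) with CUS replicate 3 at 0. Without that library the differences were 0.68 and 0.48. mmu_circRNA003618 had its higher values in Control libraries, at 186, 0 and 0 in CUS libraries and at 0, 330 and 545 in Control libraries. The other 4 Zfr circRNAs were above 0 in CUS libraries alone, in 1 or 2 libraries each, at 79.6 to 707.

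Adarb1 encodes ADAR2, the enzyme that edits the glutamate receptor transcript Gria2, and lies at chr10:77290726-77418270 on the minus strand (GRCm38). Its circRNA sum was 483, 532 and 315 in CUS libraries and was listed at 0 in all 3 Control libraries. No single Adarb1 circRNA was above 0 in all 3 CUS libraries. mmu_circRNA001155 was at 0, 532 and 315 in CUS libraries, while mmu_circRNA001153 and mmu_circRNA001154 were at 248 and 236 in CUS replicate 1 alone. The last 2 are close in level and may share reads. Counting them once gives 248, 532 and 315 in CUS libraries. None of the 3 circRNAs was above 0 in at least 3 libraries, so none passed the filter by itself, and the gene was tested only as a sum.

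Dicer1, at chr12:104687742-104751952 on the minus strand (GRCm38), had a single exonic circRNA. mmu_circRNA002619 was at 601, 549 and 247 in CUS libraries and was listed at 0 in all 3 Control libraries. No fold is given for Adarb1 or Dicer1, since the Control values are all 0. A host at 0 in all Control and above 0 in all CUS libraries was seen for 28 of 4483 hosts (0.625%), and the reverse for 33 (0.736%). For single circRNAs the shares were 73 of 10652 (0.685%) and 94 (0.882%). Adarb1 and Dicer1 were picked for this pattern, so their count is not read against those shares.

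The promoters of Adarb1 and Dicer1 are shown because the circRNA sums of these genes had the same libraries at 0. Each runs from 250 bases before to 50 bases after the annotated start (RefSeq, GRCm38.p6), at chr10:77418224-77418523 and chr12:104751903-104752202 on the minus strand, printed 5′ to 3′. Capitals mark the GC box letters GGGCGG on either strand.
Adarb1 promoter: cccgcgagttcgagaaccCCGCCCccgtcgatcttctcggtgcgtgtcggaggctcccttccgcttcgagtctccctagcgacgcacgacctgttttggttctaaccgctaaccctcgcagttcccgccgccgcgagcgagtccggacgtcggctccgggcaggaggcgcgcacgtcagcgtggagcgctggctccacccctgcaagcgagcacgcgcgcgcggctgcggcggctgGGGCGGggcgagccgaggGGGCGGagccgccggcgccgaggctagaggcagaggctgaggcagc
Dicer1 promoter: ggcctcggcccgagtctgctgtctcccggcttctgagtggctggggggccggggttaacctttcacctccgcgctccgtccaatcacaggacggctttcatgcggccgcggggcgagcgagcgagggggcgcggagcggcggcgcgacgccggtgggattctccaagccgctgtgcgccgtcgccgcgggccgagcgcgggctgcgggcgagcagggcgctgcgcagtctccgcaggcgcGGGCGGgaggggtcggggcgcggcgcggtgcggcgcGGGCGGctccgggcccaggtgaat
The GC box letters matched at 3 places in the Adarb1 window and at 2 in the Dicer1 window, and 35.7% of 32851 promoter windows held at least 1 match. The letters TGACG of a cAMP response element half-site, searched on both strands, matched once in Adarb1 and not in Dicer1, against 20.8% of all windows. The glucocorticoid receptor half-site letters AGAACA, also on both strands, were in neither window and in 19.0% of all windows. GC content was 73.0% for Adarb1 and 77.3% for Dicer1, against a median of 52.7%. It was 53.0% and 79.7% in the Strbp windows, 69.0% for Zfr and 52.7% for Adarb2. The second Strbp window held 2 GC box and 2 TGACG matches, Adarb2 held 1 GC box match, and Zfr held 1 AGAACA match. High GC content and GC box letters were thus not particular to Adarb1 and Dicer1.

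Adarb2 encodes ADAR3, a brain-restricted relative of ADAR2 for which no deaminase activity is known, and in mouse cortex it marks a class of interneurons. It spans chr13:8202866-8768747 on the plus strand (GRCm38), 565.9 kb, the longest of these 5 genes. Its circRNA sum was 3063, 2523 and 1210 in CUS libraries against 681, 1533 and 543 in Control libraries. CUS replicate 3 lay below Control replicate 2, so the groups overlapped. The means were 2265 ± 953 in CUS libraries and 919 ± 536 in Control libraries (SD, n = 3 each). The log2 difference was 1.30 with SE 0.59. The Adarb2 level per kilobase of gene was 2.8, against the median of 3.9 over hosts.

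Adarb2 had no leading circRNA, and none of its 11 was above 0 in all 6 libraries. mmu_circRNA002703, of highest mean, was at 687, 0 and 563 in CUS libraries and at 0, 406 and 0 in Control libraries. The most widely seen, mmu_circRNA002704, was at 168, 145 and 81.5 in CUS libraries and at 0, 212 and 218 in Control libraries. mmu_circRNA002701 reached 1046 in CUS replicate 2, with 0 and 103 in the other CUS libraries and 0, 154 and 0 in Control libraries. mmu_circRNA002697 was at 522, 159 and 0 in CUS libraries and at 0, 461 and 0 in Control libraries. The close pair mmu_circRNA002700 and mmu_circRNA002699 differed by at most 5.4% in any library, at 218, 635 and 0 in CUS libraries and 0, 300.1 and 106 in Control libraries for the first.

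The only intronic circRNAs among the 43 were mmu_circRNA002696 and mmu_circRNA002695 of Adarb2. They were at 943 and 525 in CUS replicate 1 and were listed at 0 in the other 5 libraries. The exonic Adarb2 circRNAs alone summed to 1595, 2523 and 1210 in CUS libraries and 681, 1533 and 543 in Control libraries, which overlap.

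**Figure D3:**
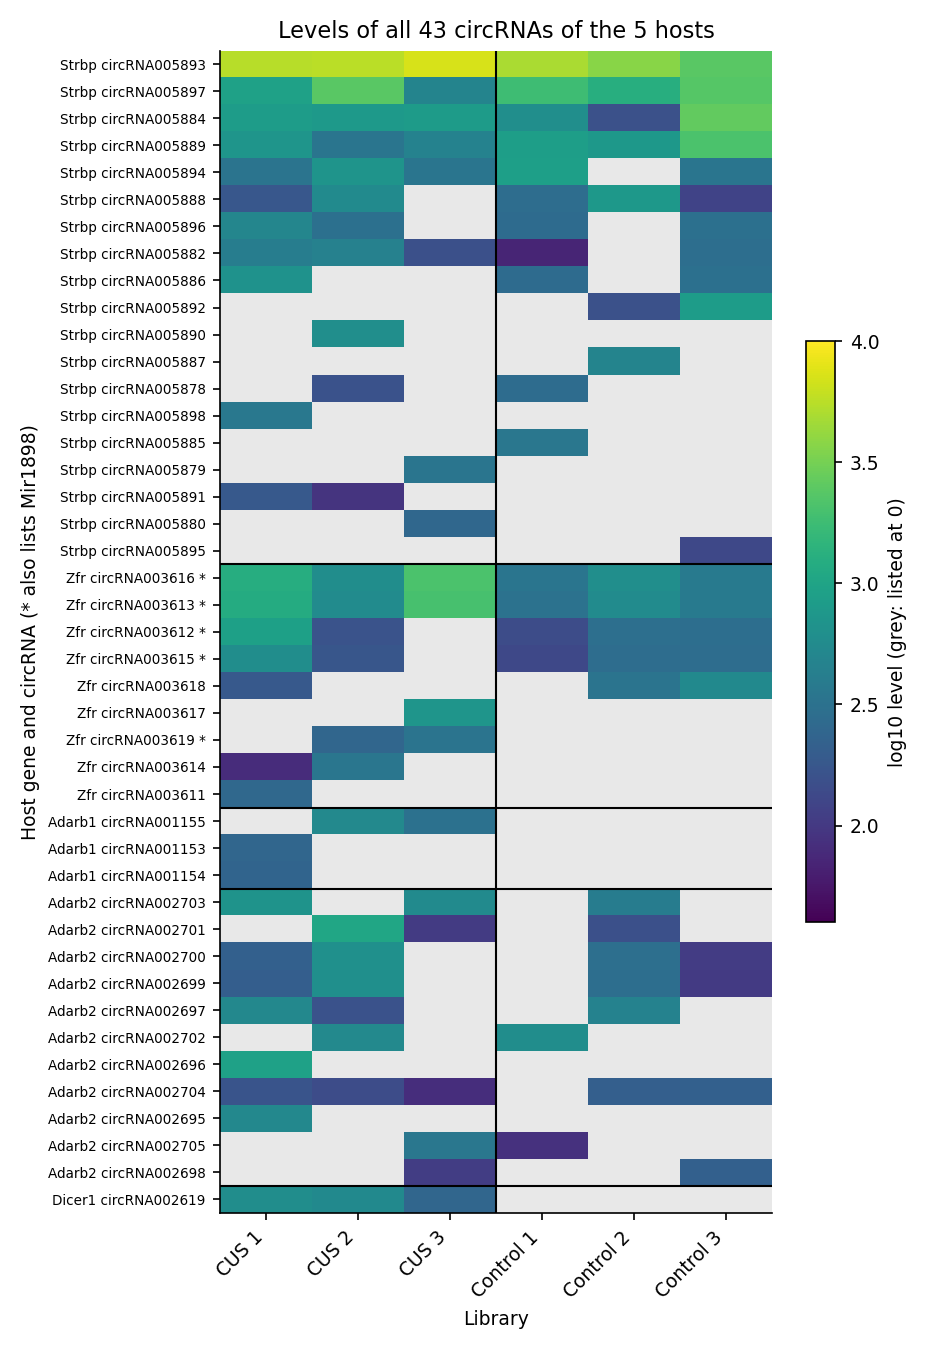
Level of each of the 43 circRNAs (rows, grouped by host, highest mean at the top of each group) in each library (columns, CUS left of Control), coloured by log10 level, with grey for entries listed at 0. An asterisk marks the 5 Zfr rows that also list Mir1898. Of the 43 rows 6 are filled in all 6 libraries, 4 of them Strbp and 2 of them the close Zfr pair.

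Across the 43 circRNAs, 13 (30.2%) were above 0 in 1 library only and 6 (14.0%) in all 6, against 36.9% and 7.5% of all 10652. Exonic circRNAs made up 41 of the 43, and 89.4% of the whole table. There were 15 above 0 in CUS libraries and at 0 in all Control libraries, where the whole table had 23.4%, and 4 with the reverse, where it had 27.0%. Of those 15, 10 were above 0 in 1 CUS library. The choice of hosts used this comparison, so nothing is read from these counts. Of the 43, 21 passed the filter and were fitted. Among these, 3 had every CUS library above every Control library (5.78% of all tested) and 1 had every CUS library below (5.08% of all tested). The 3 were mmu_circRNA005893, the Dicer1 circRNA, whose gene was picked for this pattern, and mmu_circRNA003613, whose close partner overlapped.

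**Figure D4:**
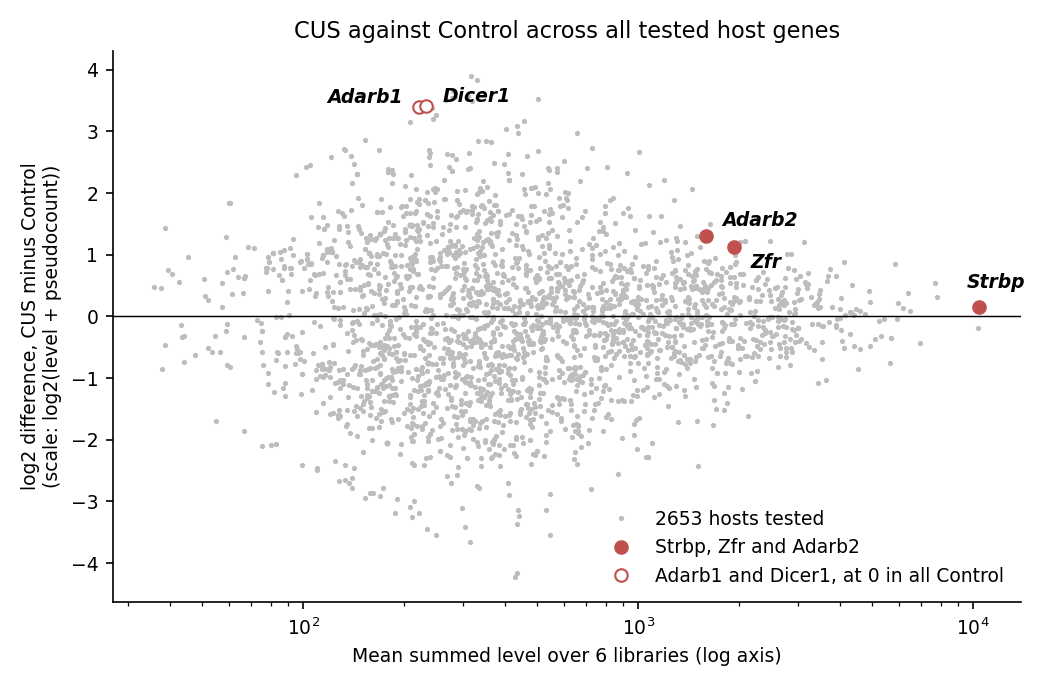
Log2 difference, CUS minus Control, on the log2(level + 45.5) scale (vertical axis) against the mean summed level over 6 libraries (log horizontal axis) for the 2653 tested hosts. Filled red points mark Strbp (0.15), Zfr (1.13) and Adarb2 (1.30), and open points mark Adarb1 and Dicer1, whose heights depend on the pseudocount because all Control libraries are at 0.

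Hosts were also ranked by how closely their pattern over the 6 libraries followed each gene, as the mean absolute difference in log2(level + 45.5) after centring. Over the other 2652 tested hosts the median distance was 1.11 for Strbp and 1.80 for Adarb1. Adarb1 and Dicer1 were picked for being at 0 in all Control and above 0 in all CUS libraries, a pattern seen for 28 of 4483 hosts. Their closeness follows from that pattern and is not read against the median. The Adarb1 sum here counts both rows seen in CUS replicate 1 alone (483.5 in that library). Distances with those rows counted once (247.6) were not computed. On this sum, Adarb1 and Dicer1 were each other's nearest host, at 0.11. Gabrb2, a GABA-A receptor subunit gene, came next for both (737, 646 and 215 in CUS libraries and 0 in all Control libraries), at 0.24 from Adarb1 and 0.13 from Dicer1. The nearest to Strbp were Fat3, an atypical cadherin gene, at 0.11, and Slc8a1, a sodium-calcium exchanger gene, at 0.12. The nearest to Zfr was Mir1898 at 0.13, which holds the same rows, and then Crkl, an adaptor protein gene, at 0.28. The nearest to Adarb2 were Scap, a sterol sensor gene, at 0.20, and Bfar at 0.31. These distances describe 6 libraries and carry no test.

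Other genes of the same pathways were taken from lists. Of 17 further genes for double-stranded RNA-binding proteins, 7 had a circRNA and 5 were tested, 2 fitted higher and 3 lower in CUS libraries (47.7% of all tested hosts were fitted higher), with a median log2 difference of -0.12 against -0.06 for all hosts, and 0 past the threshold. Ilf2, the usual partner of DZF proteins, had no circRNA in the table. Adar, the other active editing enzyme, was at 209, 202 and 128 in CUS libraries and at 94.2, 484 and 0 in Control libraries. Stau2, an RNA transport gene of neurons, had the highest mean of the list, at 1810 ± 550 in CUS libraries and 1419 ± 797 in Control libraries (SD, n = 3 each). Dhx9, a helicase gene known in human cells to act on the inverted repeats that promote circRNAs, was at 348, 0 and 296 in CUS libraries and at 263, 282 and 955 in Control libraries. Son was at 887, 0 and 0 in CUS libraries and at 649, 267 and 0 in Control libraries.

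In the small RNA list 13 of 22 genes had a circRNA and 9 were tested, 4 with a higher and 5 with a lower fitted value, a median of -0.06 and 0 past the threshold. Dgcr8 and Tarbp2, partners of the microRNA processing enzymes, had none. Tnrc6b, a scaffold of the silencing complex, was at 2403, 888 and 386 in CUS libraries and at 292, 550 and 191 in Control libraries. Tut4, which adds uridines to microRNA precursors, was at 250 ± 56.2 in CUS libraries and 857 ± 320 in Control libraries (SD, n = 3 each). Its log2 difference was -1.56 with a limma adjusted p of 0.922. Pan3, a deadenylase subunit gene of highest mean in the list, was at 2721 ± 911 in CUS libraries and 2731 ± 409 in Control libraries (SD, n = 3 each). Ddx17, a helicase gene of microRNA processing, was at 1395 ± 150 in CUS libraries and 860 ± 507 in Control libraries (SD, n = 3 each), and Cnot1 at 973, 627 and 0 in CUS libraries and 917, 108 and 1492 in Control libraries.

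Among 24 genes whose transcripts are known editing targets, 16 had a circRNA and 12 were tested. In CUS libraries 4 were fitted higher and 8 lower (47.7% of all tested hosts were fitted higher), with a median of -0.32, and 0 passed the threshold. Cacna1d, a calcium channel gene edited by ADAR2, was listed at 0 in all 3 CUS libraries and at 198, 812 and 875 in Control libraries. That pattern was seen for 33 of 4483 hosts (0.736%), and the limma adjusted p of Cacna1d was 0.846. Cadps, a secretion gene of highest mean in the list, was at 3676 ± 45.9 in CUS libraries and 5158 ± 473 in Control libraries (SD, n = 3 each). Its log2 difference was -0.48 with a limma adjusted p of 0.922. Grik1, a kainate receptor gene, was at 1736 ± 677 in CUS libraries and 1058 ± 937 in Control libraries (SD, n = 3 each). Copa was at 0, 0 and 152 in CUS libraries and at 154, 565 and 298 in Control libraries, and Mfn1 at 831, 0 and 288 in CUS libraries and at 0, 635 and 0 in Control libraries. Gria2 itself, named here for its role and outside the rule for list genes, was at 1077 ± 406 in CUS libraries and 912 ± 183 in Control libraries (SD, n = 3 each).

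In a list of genes for circRNA formation and RNA processing, 17 of 27 had a circRNA and 12 were tested, 7 with a higher and 5 with a lower fitted value, a median of 0.32 and 0 past the threshold. Rbfox3, a neuronal splicing factor gene, was at 1521, 118 and 2974 in CUS libraries and at 1429, 0 and 0 in Control libraries. Elavl2 was at 974 ± 260 in CUS libraries and 1590 ± 691 in Control libraries (SD, n = 3 each), and Hnrnpll at 0, 947 and 0 in CUS libraries and 268, 240 and 386 in Control libraries.

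Cell type markers were read as summed circRNA levels of their genes. Of 17 interneuron markers 5 had a circRNA, and Gad1, Gad2, Sst, Pvalb and Vip had none. Their sum was 186 to 4193 in CUS libraries and 1500 to 3101 in Control libraries, which overlap, as the Adarb2 sums do. Their part in the Adarb2 values was not tested. Dentate granule markers, 7 of 10 with a circRNA, summed to 5841 to 6707 in CUS libraries and 2974 to 4712 in Control libraries, with 5 of 6 tested genes fitted higher, and C1ql2 and Calb1 had none. CA pyramidal markers, 4 of 11 with a circRNA, summed to 3019 to 4250 in CUS libraries and 4266 to 9043 in Control libraries, and Spink8, Wfs1 and Fibcd1 had none. The lower CA sum rested on Tenm3 (2313 ± 318 in CUS libraries and 4935 ± 1734 in Control libraries, SD, n = 3 each), while the other 3 CA genes were fitted higher in CUS libraries. Of those, Cpne4 was at 0 in all Control libraries, so its fit depends on the pseudocount. Nectin3 had a lower mean in CUS libraries (570 against 660), with Control replicate 1 at 0. Sums without the gene of highest mean were added after the values were seen. Without Tenm3 the CA sum was 935 to 1573 in CUS libraries and 324 to 2106 in Control libraries, and without Rfx3 the dentate sum was 2311 to 3537 in CUS libraries and 1548 to 2925 in Control libraries, so both then overlapped. Relative depth also did not overlap between groups. The part of depth and of these marker genes in the values of Zfr, Adarb1 and Dicer1 was not tested. Astrocyte markers, 5 of 12 with a circRNA, summed to 3123 to 5498 in CUS libraries and 3648 to 4049 in Control libraries, with none from Gfap or Aqp4. Without Bmpr1b they summed to 1710 to 2642 in CUS libraries and 1085 to 1525 in Control libraries, which do not overlap. The genes did not move together, since of 5 tested 3 were fitted higher and 2, Bmpr1b and Gpc5, lower. Gpc5, which is within that sum, was at 274 ± 86.3 in CUS libraries and 744.5 ± 343 in Control libraries (SD, n = 3 each). The part of these astrocyte genes in the values of the 5 hosts was not tested either. Oligodendrocyte markers, 8 of 13, summed to 2471 to 3673 in CUS libraries and 1504 to 3141 in Control libraries. Vascular and choroid markers, 3 of 12, summed to 334 to 2733 in CUS libraries and 1005 to 1854 in Control libraries, and 0 of 8 microglial markers had a circRNA.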

How the data were processed

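Hippocampal circRNAs were measured in 3 CUS and 3 Control libraries, grouped by the labels. Per the labels' protocols, poly(A) RNA was captured on beads and made into strand-marked, paired-end libraries carrying molecular identifiers. Rings lack a poly(A) tail, so the capture can lower and distort what is recovered of them. The authors deposited 1 table of log10 values, with 0 where a library had none. No unit is named in the header. Per the submitters' processing notes, mm9, StringTie, DESeq and edgeR are named, with no role stated. The tool that called circRNAs was not given in the sources used here. After taking 10 to each value, 100% of values under 300 steps lay within 0.05 of a whole multiple of a library-specific step, and the lowest was 17 steps in each library. What a step stands for is unknown, so no counting interval is given.

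Host symbols and positions come from GENCODE vM21 (GRCm38), which held 4467 of the 4483 host identifiers, and positions are those of genes, not circRNAs. A circRNA counted for each host it lists. Circles of the same host above 0 in the same libraries (at least 2) and within 20% in each were counted once. This rule found 214 pairs in 195 hosts. Differences are CUS minus Control from limma 3.58.1 (R 4.3.3), fitted with a mean-variance trend to log2(level + 45.5), with Benjamini-Hochberg adjustment. For the pseudocount, each library's lowest level above 0 was taken and the median used, and it makes folds of low circRNAs too small. The fit code was run on simulated host values with a smaller spread than most hosts had here (median SE 1.25). That run does not show which changes the fit could find in these data. Labels call the samples independent without naming animals, so p-values reflect spread between libraries, which may be technical. Python 3.11.15 with pandas 2.3.3, numpy 2.4.6 and matplotlib 3.10.9 served for tables and plots.

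The genes and lists were chosen with earlier results of these data known. Named circRNAs are the one of highest mean in each host and those above 0 in at least 3 libraries, with others by range and count. mmu_circRNA005892, the 3 Adarb1 circRNAs and the 2 intronic Adarb2 circRNAs were named after their values were seen. In each pathway list the host of highest mean and up to 2 higher and 2 lower hosts of smallest unadjusted p are named, apart from 1 that is not reported here. Alternatives changed the pseudocount, filter, scaling, trend, close pairs, host assignment, replicate block and libraries left out.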

Additional observations from a re-analysis of the deposited data

How the results depend on the processing

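Limma called 0 circRNAs in each of 14 alternatives and 0 hosts in each of 17, with lowest adjusted p-values of 0.329 to 0.962 for circRNAs and 0.183 to 0.983 for hosts. Host differences ranged from 0.71 to 1.47 for Zfr and from 1.01 to 1.72 for Adarb2 on the log2 scale. Strbp ranged from -0.05 to 0.29, and the negative value came without Control replicate 2. Adarb1 and Dicer1 fits moved with the pseudocount, from 1.55 to 5.60 and from 1.57 to 5.61, and are not used. Of the 21 circRNAs fitted, 11 kept the sign of their difference in all alternatives run and 10 changed it when 1 library was left out. A circRNA above 0 in only 3 libraries fell below the filter, and was not fitted, when any of those libraries was left out. Among the 11 this held for mmu_circRNA003618, mmu_circRNA002703, mmu_circRNA002697, mmu_circRNA002701 and mmu_circRNA002619, so their kept sign was not put to that check. The Zfr groups stayed apart with both close rows counted (2101 in CUS replicate 2 against 2090 in Control replicate 2) and with a further pair counted once, a choice made after seeing the data (1358 against 1235). They overlapped for circRNAs that list Zfr alone. With the replicate number as a block, 0 circRNAs and 0 hosts were called. Same-numbered libraries did not deviate together (correlations of -0.011, -0.025 and -0.020). Libraries correlated at only 0.27 to 0.32 within groups, so this check cannot show that they are unpaired. Whether the numbers pair the libraries is not known. Unknown read depth limits every value near the lowest level.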

Other observations

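Over all hosts, 214 pairs of circRNAs in 195 hosts had close levels by the rule used for the Zfr and Adarb2 pairs. By contrast, mmu_circRNA005886 and mmu_circRNA005896 of Strbp had the same levels in all 3 Control libraries (273, 0 and 308.5). In CUS they differed, at 666, 0 and 0 for the first and 501, 307 and 0 for the second. They were therefore not counted as a pair.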
